A study of Macaca mulatta with 27 samples.

Results

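Line 906 is a male rhesus macaque embryonic stem cell line from sire M36 and dam F183, and it shares no parent with the other lines of the series. It was compared with the 4 other male lines, 106 and 306 (sire M106, dam F244) and 2706 and 3106 (sire M106, dam F88), so that each comparison line had a full sibling among the 4. The comparison used 15 of the 27 samples and 5 of the 10 lines: 3 arrays of line 906 (a, c and d) and 12 arrays of the 4 lines, 3 of each. The arrays were chosen by pedigree and sex as the deposited attributes give them, not by any measured value.

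Every line had been started from a blastocyst whose trophectoderm was destroyed by immunosurgery, and was kept on mouse embryonic fibroblasts inactivated with mitomycin C. The medium held serum replacement, basic FGF, activin A and LIF, and the culture was the same for all groups by the labels. Colonies of good morphology were scraped, and total RNA was hybridised to Affymetrix rhesus arrays. The labels do not state whether the lettered arrays are cultures of their own. The line was therefore taken as the unit, and p-values measure the spread between these lines. The 4 comparison lines share a sire and form 2 pairs of full siblings, and the fit took them as independent. Their spread, and with it each SD, SE and p, may be smaller than between unrelated lines. Line 906 is 1 line, and its difference in parents cannot be told apart from any other way in which a single line differs.

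Embryonic stem cells keep the capacity to form every embryonic germ layer through a network of transcription factors led by POU5F1, SOX2 and NANOG. Lines from different parents carry different alleles, and they also differ in imprinting, in the extent of spontaneous differentiation and in growth state. A short-probe array reads the level of a transcript together with how well the transcript's sequence matches the probes, so several probe sets for 1 gene need not give the same value.

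All values are log2(signal + 16), and differences are line 906 minus the mean of the 4 lines on that scale, which understates the change of dim genes. The share of probe sets with a present call was 42.0 to 42.7% on the arrays of line 906 and 38.2 to 46.9% on the 12 comparison arrays. Array 106c had the lowest share, the highest median signal (159.7) and the highest ratio of 3' to 5' GAPDH signal (4.61), a measure that rises as RNA degrades. The other comparison arrays had 43.1 to 46.9% present calls, all above those of line 906. The median signal was 111.8 to 137.5 on the arrays of line 906 and 94.1 to 159.7 on the comparison arrays, and the GAPDH ratio was 1.92 to 2.31 in line 906 and 1.49 to 4.61 in the others. The part of these array measures in the results was not tested beyond leaving out 906c, 106c and 306c, the 3 arrays of highest median.

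The cells carried the defining transcripts of pluripotent cells in every line. POU5F1 averaged 14.46 in line 906 and 14.29 ± 0.11 in the 4 lines (SD, n = 4), and SOX2 averaged 14.12 in line 906 and 13.82 ± 0.24 in the 4 lines at its brightest probe set. The dimmer probe sets of SOX2 gave differences of -0.54 and -0.13. Of 11 listed genes of the Y chromosome SRY alone was tested, at 7.91 in line 906 and 7.66 ± 0.17 in the other male lines. Its range overlapped that of the female lines (6.76 to 7.95), so it could not check the label of sex.

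Few probe sets of line 906 differed from the 4 lines beyond the spread between lines. Of 30842 probe sets tested (10943 genes), limma called 4 at a Benjamini-Hochberg adjusted p under 0.05, which is 0.013% of those tested. Among these, 3 were higher in line 906 and 1 was lower, and 2254 had an unadjusted p under 0.05. Of the 3 higher, 2 were tested only because of their values in line 906, so their p-values alone do not establish a difference. With 1 line against 4, an exact permutation test of line names could not go below 0.200.

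STYXL1, which encodes a catalytically inactive relative of the dual-specificity phosphatases, had a lower signal in line 906. Its probe set read 8.25, 8.39 and 7.64 on the 3 arrays of line 906, and the 12 comparison arrays ran from 10.87 to 11.79 with a median of 11.48. The arrays of the groups did not overlap. The line means were 8.09 in line 906 and 11.42 ± 0.16 in the 4 lines, a difference of -3.33 ± 0.22 (SE), or 10.02-fold lower, with a limma adjusted p of 0.0253. All 15 arrays had a present call, so that the probe set was detected in line 906 as well, at a lower signal. STYXL1 had 1 probe set, and line 906 was also below the other 5 lines of the series. Whether probe sequence or transcript level differs was not tested.

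LOC704450, a locus named only by its identifier, was called higher through 1 of its probe sets, MmugDNA.34325.1.S1_at. That probe set read 8.52, 9.28 and 9.30 in line 906 and 4.62 to 6.59 on the comparison arrays, with a median of 4.96. It was present on 3 of 3 arrays of line 906 and on 0 of the 12 others. The difference was 3.98 ± 0.27 (limma adjusted p = 0.0253), and since the 4 lines were not above background, line 906 was at least 15.35-fold higher. It was above the array median on 0 of the 12 comparison arrays, so that it passed the brightness filter only through line 906, where it was high. A second and brighter probe set of the same locus, MmugDNA.38453.1.S1_at, averaged 7.87 in line 906 and 8.21 in the 4 lines, and it lay within their range.

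The other called probe sets have no gene symbol. MmugDNA.11522.1.S1_at read 9.57, 10.00 and 9.83 in line 906 and 6.05 to 7.55 (median 6.82) on the comparison arrays, at least 8.16-fold higher in line 906 (limma adjusted p = 0.0253). MmugDNA.10890.1.S1_at read 11.53, 11.65 and 11.66 in line 906 and 7.92 to 9.83 (median 8.77) on the comparison arrays, at least 6.86-fold higher in line 906 (limma adjusted p = 0.0473). Both were present on 3 of 3 arrays of line 906 and on 0 of 12 of the others. MmugDNA.11522.1.S1_at was above the array median on 2 of the 12 comparison arrays and also passed the filter only with line 906, as did 96 of the 30842 probe sets tested. Without the filter the adjusted p was 0.0636 for STYXL1 and for LOC704450, 0.0668 for MmugDNA.11522.1.S1_at and 0.120 for MmugDNA.10890.1.S1_at, so limma called 0 (3804 at an unadjusted p under 0.05). None of these 4 probe sets overlapped between the groups on single arrays, and for all 4 line 906 was also outside the other 5 lines. LOC704450 and MmugDNA.11522.1.S1_at were tested only because of their values in line 906, so their lack of overlap backs no call. Over all probe sets tested, all 3 arrays of line 906 lay above the 12 others for 1.41% and below them for 1.25%.

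The calls moved with the lines in the fit. Against lines 106 and 306 alone limma called 47 probe sets, these 4 among them (adjusted p from 0.00517 to 0.0126). The p-values of LOC704450 and MmugDNA.11522.1.S1_at there do not show that a call held, since both were tested only because of line 906. Those of STYXL1 and MmugDNA.10890.1.S1_at were 0.0126 each. Against 2706 and 3106 alone limma called 0 probe sets (3575 at an unadjusted p under 0.05). Without line 106, 306 or 3106 limma called 0 probe sets (2232, 2470 and 2058 at an unadjusted p under 0.05). Without line 2706 it called LOC704450 alone (adjusted p = 0.0429). The called probe set of LOC704450 was tested only because of its values in line 906, so this p does not show that a call held. The STYXL1 difference stayed between -3.48 and -3.10 over 25 alternative settings, and its adjusted p ran up to 0.431 without moderation of the variances and was under 0.05 in 17 of the 25.

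**Figure D1:**
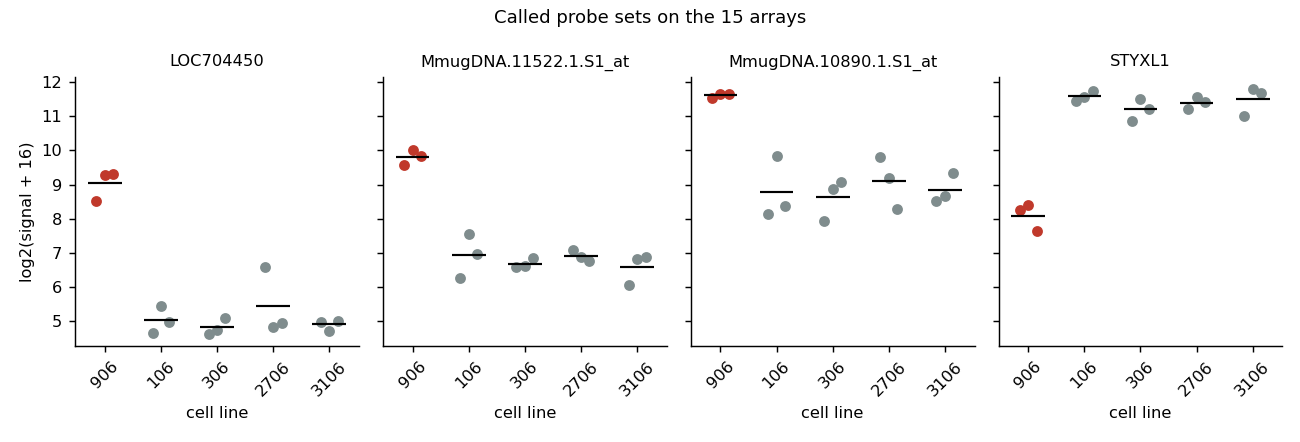
Log2(signal + 16) of the 4 called probe sets on each of the 15 arrays, by cell line, line 906 in red at the left and the comparison lines in grey, with a bar at each line's mean. The 3 arrays of line 906 lie beyond all 12 comparison arrays in every panel, below them for STYXL1 and above them for the others.

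The range of the 4 lines was narrow for most probe sets, with a median SD between them of 0.205. Line 906 lay above all 4 lines for 7425 probe sets (24.1% of those tested) and below all 4 for 6295 (20.4%), in all 13720, and its median distance from the nearest line was then 0.143. The balance between the sides followed the scaling: 54.1% of the probe sets outside were above as deposited, 51.2% after quantile normalization, 42.9% with each array centred on its median, and 49.3% without array 906c. Being the highest or lowest of 5 lines was common for every line. The other 4 lines were each the highest for 5221 to 6507 probe sets and the lowest for 5568 to 6621.

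Outside the range by over 1 log2 unit, line 906 was above for 57 probe sets (0.185%) and below for 109 (0.353%). Lines 106, 306, 2706 and 3106, set against the other 4 lines in the same way, had 15, 11, 34 and 76 above and 31, 32, 26 and 50 below. Those lines each have a full sibling in their own comparison set, which line 906 has not. Of the 166 probe sets, 144 also put line 906 outside all 9 other lines of the series. Many were dim: 52 of the 166 had no present call on any of the 15 arrays. Of the 57 above, 18 had passed the brightness filter only with the arrays of line 906. Of the 57 above, 33 were present on all 3 arrays of line 906 and 28 were present on none of the 12 others, and of the 109 below, 44 were present on all 12 comparison arrays and 68 on none of line 906.

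With the single arrays in place of line means, all 3 arrays of line 906 lay above all 12 arrays for 435 probe sets (1.41%) and below them for 387 (1.25%). Of the 435 above, 40 had passed the brightness filter only with the arrays of line 906. Of the same 435, 22 were above the array median on no comparison array. The filter thus adds to the count above. For 356 of the 822 probe sets on either side the 3 arrays also lay beyond all 24 other arrays of the series.

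The probe set with the largest difference was not called, because the comparison lines spread widely. MmugDNA.9025.1.S1_at, unnamed and picked out here after its values were seen, read 12.08, 11.83 and 12.30 in line 906 and 6.56 to 10.10 (median 7.27) on the comparison arrays, a difference of 4.15 ± 0.98 (adjusted p = 0.364). The probe set with the lowest difference, -3.45 ± 0.61, was also unnamed, and was picked out in the same way. This probe set, MmugDNA.23547.1.S1_at, read 5.77, 6.93 and 6.68 in line 906 and 8.65 to 10.73 (median 10.12) on the comparison arrays. Its groups did not overlap, but its adjusted p was 0.243.

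**Figure D2:**
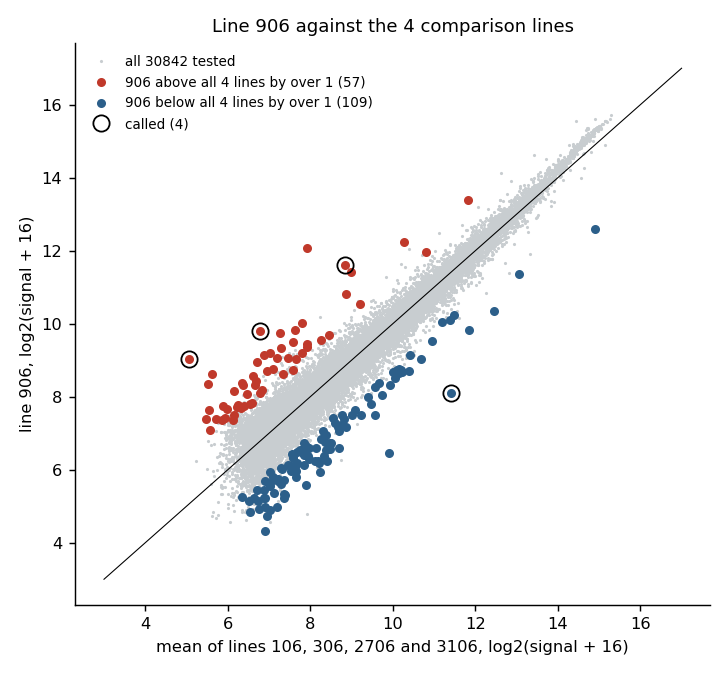
Mean log2(signal + 16) of line 906 (vertical axis) against the mean of lines 106, 306, 2706 and 3106 (horizontal axis) for all 30842 probe sets tested. Red points (57) put line 906 above all 4 lines by over 1, blue points (109) below all 4 by over 1, and black rings mark the 4 called, with STYXL1 alone below the diagonal.

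Named genes with line 906 apart from the 4 lines on every array, but not called, are given by value. At the gene level, taking the brightest probe set, line 906 was above all 12 arrays for 181 of 10943 genes (1.65%) and below them for 150 (1.37%). TYW3, an enzyme of wybutosine formation in transfer RNA, read 12.20, 12.21 and 12.28 in line 906 and 9.92 to 10.79 (median 10.20) on the comparison arrays, all of them present. The TYW3 difference was 1.96 ± 0.23 with an adjusted p of 0.121. It passed the threshold in 5 of 25 alternative settings, against lines 106 and 306 alone (limma adjusted p = 0.0365) among them. In the others its adjusted p ran up to 0.646.

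THEM4, an acyl-CoA thioesterase, averaged 9.13 in line 906 and 6.88 ± 0.39 in the 4 lines. The 5 female lines ran from 7.855 to 8.357 for THEM4, above the 4 lines (6.438 to 7.340) and below line 906. COX6A2, the muscle isoform of a cytochrome c oxidase subunit, read 9.41, 9.33 and 9.24 in line 906 and 6.13 to 8.04 (median 7.41) on the comparison arrays. Its present calls were 3 of 3 in line 906 and 0 of 12 in the others, with a difference of 2.02 ± 0.25 and an adjusted p of 0.132. UBE2G2, a ubiquitin-conjugating enzyme of endoplasmic reticulum quality control, averaged 9.37 in line 906 and 7.98 ± 0.60 in the 4 lines, and PARP15, a mono-ADP-ribosyltransferase, averaged 9.18 in line 906 and 7.67 ± 0.69 in the 4 lines.

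Among transporters and receptors, SLC38A4, an amino acid transporter, read 8.60, 9.13 and 8.40 in line 906 and 6.31 to 7.55 (median 7.06) on the comparison arrays. The second probe set of SLC38A4 gave a difference of -0.13. PTH2R, a receptor of the parathyroid hormone family, averaged 8.31 in line 906 and 6.38 ± 0.54 in the 4 lines. The locus LOC694780 averaged 8.46 in line 906 and 6.90 ± 0.69 in the 4 lines.

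For 4 of the named genes on this side no array had a present call. PLA2G2E, a secreted phospholipase, read 8.19, 9.07 and 8.64 in line 906 and 4.96 to 6.16 (median 5.67) on the comparison arrays, a difference of 3.02 ± 0.31. SERPINB7, a serine protease inhibitor, had a difference of 2.84 ± 0.33. ZNF878, a zinc finger gene, and CDH16, a kidney cadherin, had differences of 1.93 and 1.68. Since all 4 were called absent in both groups, these are differences in signal at background level, and no fold is given. All 4 were above the array median on 0 of the 12 comparison arrays and were tested only because of their values in line 906, so no p is given. PTH2R, DKK1, SP5 and PAX6 also passed the filter only with line 906.

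On the lower side, MRAP2, an accessory protein of melanocortin receptors, had the narrowest spread of these named genes. It read between 7.85 and 8.29 on the 3 arrays of line 906 and 9.30 to 10.21 (median 9.75) on the comparison arrays, and its line means were 8.05 in line 906 and 9.75 ± 0.04 in the 4 lines. Present calls were 0 of 3 in line 906 and 12 of 12 in the others. The difference was -1.70 ± 0.18, with a limma adjusted p of 0.0969 over all probe sets tested and 0.0334 over those passing the 75th percentile filter. It was under the threshold in 5 of 25 alternative settings and ran up to 0.357.

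ROR1, a WNT5A receptor, averaged 7.51 in line 906 and 9.23 ± 0.47 in the 4 lines. DCBLD2, a neuropilin-like membrane protein, read 8.27, 8.67 and 9.02 in line 906 and 9.66 to 10.53 (median 10.21) on the comparison arrays, a difference of -1.49 ± 0.19 (adjusted p = 0.136). TEK, the angiopoietin receptor, averaged 6.74 in line 906 and 8.49 ± 0.66 in the 4 lines, whereas its second probe set gave -0.14. At the first probe set of TEK the 5 female lines ran from 5.93 to 9.34, a range that held line 906. DOCK8, a guanine nucleotide exchange factor best known in leukocytes, had a difference of -2.09 ± 0.75 at the brighter of its probe sets and -0.71 at the other.

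EBF2, a transcription factor of mesenchymal lineages, had negative differences at both of its probe sets, of -1.65 ± 0.22 and -1.10. The brighter one read 7.62, 8.20 and 7.62 in line 906 and 8.44 to 10.15 (median 9.60) on the comparison arrays. There the 5 female lines ran from 7.595 to 9.635, a range that held the mean of line 906. KLHL5, a kelch-repeat protein, averaged 9.04 in line 906 and 10.68 ± 0.17 in the 4 lines, and EFHC2, an EF-hand protein, averaged 6.77 in line 906 and 8.36 ± 0.24 in the 4 lines. QPCT, the glutaminyl cyclase that modifies peptide ends, averaged 8.70 in line 906 and 10.40 ± 0.54 in the 4 lines. ADAM18, a member of the ADAM family known from testis, and C19H19orf12 had differences of -2.17 and -1.91. The second probe sets of these 2 genes gave -0.07 and -0.86.

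**Figure D3:**
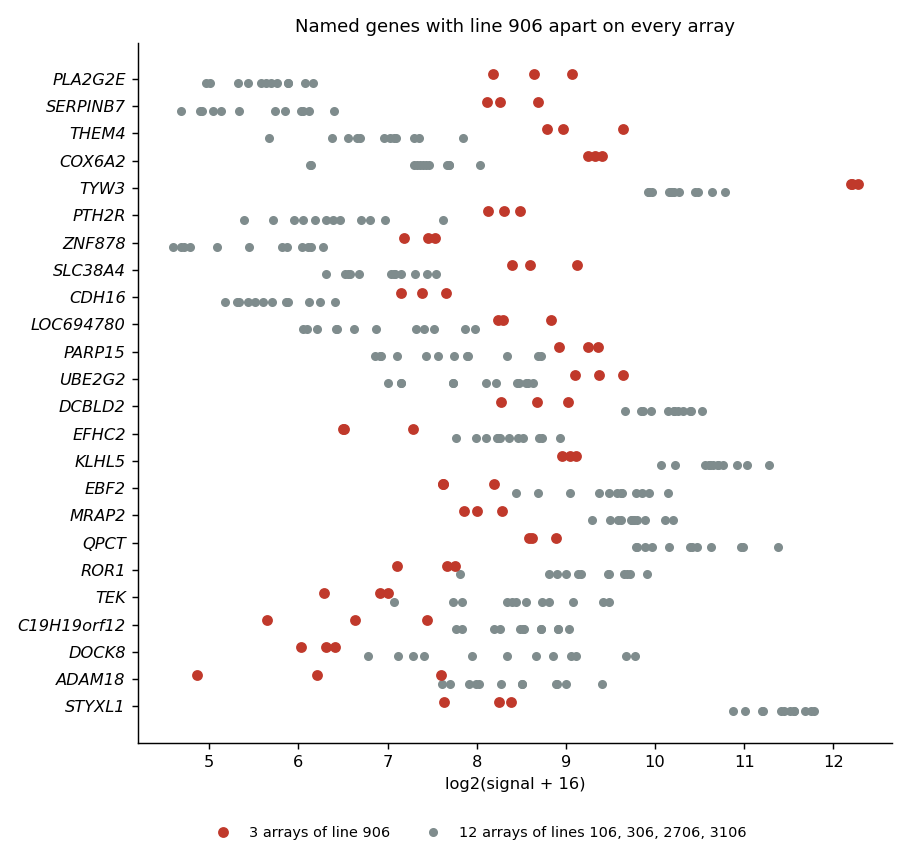
Log2(signal + 16) on single arrays for the 12 genes per direction with the largest differences among those with line 906 beyond all 12 comparison arrays, ordered by difference, with the 3 arrays of line 906 in red above the 12 comparison arrays in grey on each row. Of these genes, STYXL1 at the foot of the plot passed the adjusted threshold, and the gap between the groups is wide for TYW3 and MRAP2 and narrow for LOC694780 and TEK.

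Several genes had more than 1 probe set, which gives a second reading of the same transcript on the same arrays. The genes of this paragraph and the next were picked out after their values were seen. For 13 genes, 2 or more probe sets put line 906 apart from all 12 arrays on 1 side with an unadjusted p under 0.05, with 3 above and 10 below. Genes with 2 or more probe sets tested were not counted, so no share is given and the split is not read as a result. Over all single probe sets tested, all 3 arrays of line 906 lay above for 1.41% and below for 1.25%. CD99, a cell surface glycoprotein, had differences of -1.36 and -1.32. The brighter CD99 probe set read 8.39, 9.39 and 8.44 in line 906 and 9.57 to 10.65 (median 9.99) on the comparison arrays. RNPS1, a splicing factor of the exon junction complex, had -1.52 and -1.44, and THEMIS2, a signalling adaptor known from immune cells, had -1.35 and -1.83. On the higher side FAS, the death receptor and p53 target, had differences of 1.30 and 1.48, CTNND2, a catenin of the delta family, had 1.04 and 0.72, and CD164, a sialomucin, had 0.33 to 0.80 over 5 probe sets. None of these passed the adjusted threshold.

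For other genes the probe sets disagreed. Of the 80 probe sets with 1 symbol that lay beyond the range by over 1, 46 had another probe set of the same gene tested. In 14 of the 46 another lay on the same side with an unadjusted p under 0.05, in 2 another lay on the opposite side at that p, and in 28 at least 1 other lay within the range of the 4 lines. TMEM106B, a lysosomal membrane protein, read 11.27, 11.60 and 11.36 in line 906 and 8.17 to 9.95 (median 9.04) at one probe set, a difference of 2.43, while its others gave -0.60 and -0.09. HELLS, a chromatin remodeller, gave -2.31 at a dim probe set with 0 of 3 present calls in line 906 and 12 of 12 in the others, and 0.07 at a bright one. NAMPT, an enzyme of NAD synthesis, gave -2.04, -0.40 and -0.35, and HIGD1A, a mitochondrial inner membrane protein, gave -2.09, -0.35 and -0.12.

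SFRP1, a secreted WNT inhibitor, read on opposite sides, with line 906 beyond all 12 arrays both ways. Its brightest probe set averaged 13.90 in line 906 and 13.40 in the 4 lines, and another averaged 11.36 in line 906 and 13.07 in the 4 lines. RPL13, a protein of the large ribosomal subunit, gave 1.56 at one probe set and -0.61 to -0.36 at the other 4. MAMU-A, a classical class I histocompatibility gene, averaged 10.02 in line 906 and 7.81 in the 4 lines at one probe set, and 11.15 in line 906 and 10.90 in the 4 lines at the other. Class I genes have near-identical copies in the macaque genome, so that its reading is uncertain. PPIP5K2, an inositol pyrophosphate kinase, gave 1.94, -0.25, -0.14 and 0.01, and ZNF106, a zinc finger gene, gave 2.21 and -0.04.

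**Figure D4:**
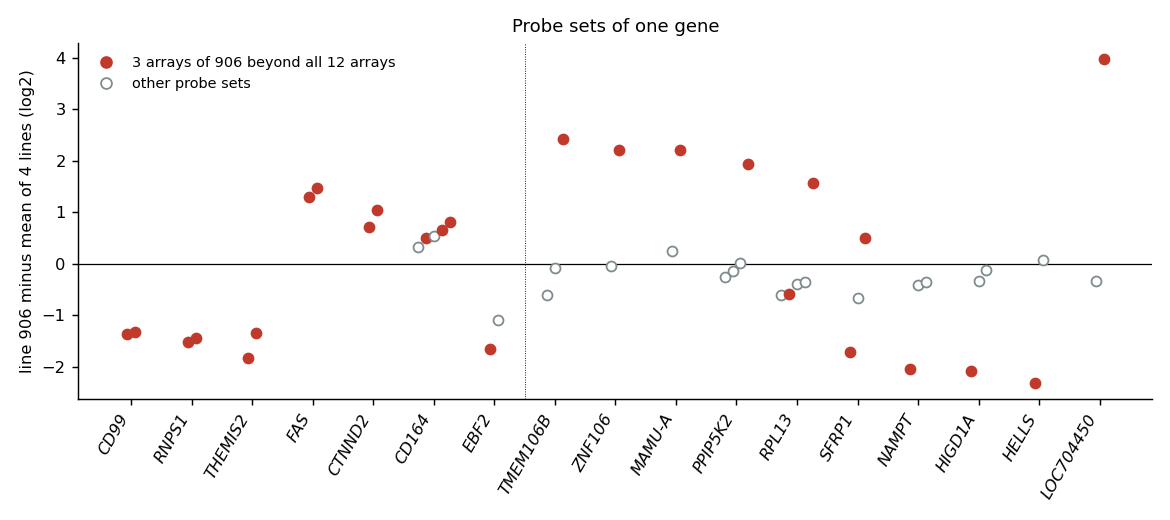
Difference of line 906 from the mean of the 4 lines (log2, vertical axis) for each tested probe set of 17 genes, with filled red points where all 3 arrays of line 906 lay beyond all 12 comparison arrays. Left of the dotted line, from CD99 to EBF2, the probe sets of a gene share their sign, and to the right, from TMEM106B to LOC704450, they differ in size or in sign.

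Further probe sets beyond the range by over 1 that were present in at least one group are given here as examples, chosen after their values were seen. IL13RA1, a chain of the interleukin-13 receptor, read 10.07, 10.15 and 10.06 in line 906 and 10.84 to 12.23 (median 11.37) on the comparison arrays. The brighter probe sets of IL13RA1 gave differences of -0.75 and -0.33, against -1.28 at this one. SEPTIN6, a cytoskeletal GTPase, averaged 10.05 in line 906 and 11.18 ± 0.04 in the 4 lines at one probe set, and its other 3 gave -0.65 to -0.02. CDK1, the mitotic kinase, read 10.32, 10.08 and 10.29 in line 906 and 10.89 to 12.10 (median 11.48) on the comparison arrays at one probe set, while the other 2 gave -0.02 and 0.22.

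RNF113A, a zinc finger protein of the spliceosome, read 7.91, 7.74 and 8.36 in line 906 and 9.11 to 9.76 (median 9.35) on the comparison arrays, with present calls on 0 of 3 arrays of line 906 and on 12 of 12 of the others. EIF4G1, the scaffold of the translation initiation complex, averaged 7.40 in line 906 and 8.81 ± 0.32 in the 4 lines. KDM5A, a histone demethylase, gave -1.25, -0.64 and -0.23 over 3 probe sets. On the higher side, SLC30A7, a zinc transporter of the Golgi, averaged 9.03 in line 906 and 7.66 ± 0.39 in the 4 lines at one probe set, and its others gave 0.74 and 0.24. PRR5L, a partner of the mTORC2 kinase complex, gave 1.30 and 0.70, and MICB, a stress-induced ligand of a natural killer cell receptor, gave 1.46 and -0.01. The adjusted p of each probe set in this paragraph and the one before it was over the threshold.

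Genes of 21 pathway and cell type lists were then read through their brightest probe sets. Of 317 listed genes tested, limma called 0 and 36 had an unadjusted p under 0.05. Over all 30842 probe sets tested, 4 were called and 2254 had an unadjusted p under 0.05. With the line as a random block on the 15 arrays limma called 2 listed genes, FAS (adjusted p = 0.0443) and COL6A1 (adjusted p = 0.0142). The same fit called 210 of all 30842 probe sets, so the 2 are not read as a result about the lists. That fit counts its degrees of freedom in arrays rather than lines. On line means the limma adjusted p was 0.32 for FAS and 0.243 for COL6A1. The counts outside the range below are to be read beside those over all genes, for which line 906 was above the 4 lines in 2788 of 10943 (25.5%) and below in 2058 (18.8%), with a median difference of 0.03. Line 906 lay outside the 4 lines but not outside all other lines for IDI1, INSIG1, SQLE, FGF4, PRDM14, DKK1 and SP5. The same held for POU5F1, SOX2, TFAP2A, GATA3, COL6A3, S100A6, TWIST1, PAX6, TUBB3, TEK, DLK1 and IFIT3.

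Cholesterol and fatty acid synthesis genes, which share control by the SREBP transcription factors, had mostly negative differences. Of 17 tested, 10 were below all 4 lines (58.8%) and 2 above, 15 had a negative difference, and the median was -0.34. The median was -0.215 against lines 106 and 306 alone and -0.394 against 2706 and 3106 alone. INSIG1, the sterol-regulated anchor that retains the SREBP transcription factors, read 8.79, 9.48 and 9.04 in line 906 and 9.03 to 11.23 (median 10.45) on the comparison arrays, so that the arrays overlapped. IDI1, an isomerase of the mevalonate pathway, read 9.97, 9.52 and 10.03 in line 906 and 10.12 to 11.54 (median 10.72) in the others, without overlap. The IDI1 difference was -1.04 ± 0.33 (adjusted p = 0.529), and its other probe sets gave -0.43 and -0.33.

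SQLE, squalene epoxidase, averaged 10.60 in line 906 and 11.23 ± 0.53 in the 4 lines, and its second probe set gave -0.67. At the brightest probe set the SQLE difference was -0.22 from lines 106 and 306 and -1.03 from 2706 and 3106. Those of INSIG1 were -0.51 and -1.65, and those of IDI1 were -0.79 and -1.30. FDFT1, squalene synthase, and SREBF2, the transcription factor of the pathway, were chosen after their values were seen, with differences of -0.60 and -0.50. Both genes above the range, FDPS and MVK, had differences of 0.16 and 0.11. The count below the range fell to 5 of 17 without arrays 906c, 106c and 306c and to 6 with line medians, where the median difference was -0.26 and -0.25.

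Pluripotency genes were on both sides. Of 19 tested, 7 were above the 4 lines (36.8%) and 4 below (21.1%), with a median of 0.16. DNMT3B, the de novo DNA methyltransferase of early embryonic cells, averaged 14.15 in line 906 and 13.57 ± 0.17 in the 4 lines, a difference of 0.58 ± 0.22 (adjusted p = 0.633). NANOG read 9.30, 9.55 and 9.74 in line 906 and 8.24 to 9.71 (median 9.10) in the others, and FGF4, a growth factor of the epiblast, averaged 8.64 in line 906 and 7.44 ± 0.61 in the 4 lines. PRDM14, a repressor of somatic genes, averaged 9.77 in line 906 and 10.37 ± 0.20 in the 4 lines. DPPA4 was within the range at 11.78 in line 906 and 11.89 ± 0.40 in the 4 lines, and the POU5F1 difference of 0.16 was 0.079 without array 906a and turned to -0.065 after quantile normalization.

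Adhesion and epithelial junction genes were above the 4 lines in 10 of 22 (45.5%) and below in 3, with a median of 0.15. EPCAM, an epithelial adhesion molecule of pluripotent cells, read 14.14, 13.83 and 14.03 in line 906 and 13.18 to 13.71 (median 13.40) in the others, without overlap (difference 0.58 ± 0.20, adjusted p = 0.601). CD9, a tetraspanin, averaged 13.78 in line 906 and 13.09 ± 0.31 in the 4 lines, and its other probe sets gave 0.77 and -0.07. ITGA3, an integrin chain, was below, at 7.42 in line 906 and 8.10 ± 0.15 in the 4 lines, and its difference of -0.68 was -0.35 without array 906c.

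Among FGF, TGF-beta and WNT signalling genes, 11 of 34 were above the 4 lines (32.4%) and 4 below (11.8%). DKK1, a secreted WNT inhibitor, read 8.14, 8.56 and 7.47 in line 906 and 5.90 to 7.58 (median 6.64) in the others, a difference of 1.41 ± 0.31 (adjusted p = 0.320), and 906d lay within the range of the 12 arrays. SP5, a transcription factor induced by WNT signalling, had a difference of 1.37 and no present call on any of the 15 arrays. The 5 female lines of the series, also sired by M106, ran from 7.40 to 8.72 for DKK1 and from 6.96 to 8.67 for SP5. Line 906 lay within both of these ranges.

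Markers of other cell types were read in the same way. Of 10 trophoblast genes tested, 5 were above the 4 lines (50%) and 1 below, and 3 had no present call on the 15 arrays. TFAP2A, a transcription factor of trophoblast and surface ectoderm, read 7.72, 9.40 and 9.33 in line 906 and 6.69 to 8.97 (median 7.24) in the others. HAND1, a factor of trophoblast and extraembryonic mesoderm, read 7.60, 7.73 and 9.74 in line 906 and 6.34 to 8.33 (median 7.03). GATA3, a regulator of trophectoderm, read 7.44, 9.31 and 9.09 in line 906 and 6.92 to 8.88 (median 7.58). For each of the 3 genes at least 1 array of line 906 lay within the range of the 12 others. The mean level over the tested genes of the list was 8.50 in line 906 and 8.05 to 8.30 in the 4 lines, and its part in the other differences was not tested. Without 906d the HAND1 difference was 0.46, and without 906c that of GATA3 was 0.58, both within the range of the 4 lines. Without array 906d the count above was 4 and the median 0.02, against 0.16 with it.

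Fibroblast and matrix genes, which feeder-type or differentiating cells express, were above in 4 of 20 (20%) and below in 7 (35%). COL6A1, a collagen VI chain, read 8.44, 9.38 and 8.18 in line 906 and 9.47 to 10.69 (median 9.94) in the others, a difference of -1.33 ± 0.24 (adjusted p = 0.243) without overlap. COL6A3, another chain, averaged 8.94 in line 906 and 9.97 ± 0.24 in the 4 lines. The calcium-binding protein gene S100A6 read 9.94, 14.45 and 10.23 in line 906 and 8.38 to 15.19 (median 10.00) in the others. Its high readings were on 906c, 106c and 306c, the arrays of highest median, with 15.19 on 106c and 14.455 on 306c. Arrays 2706c and 3106c were at 9.852 and 10.375. The S100A6 difference of 0.95 turned to -0.50 without array 906c. The mean level over the tested genes of the list was 10.38 in line 906 and 10.31 to 10.64 in the 4 lines.

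Of 8 mesoderm genes tested, 3 were below (37.5%) and 1 above (12.5%). TWIST1, a mesenchymal transcription factor, read 8.15, 9.66 and 8.47 in line 906 and 9.27 to 10.80 (median 10.20) in the others, a difference of -1.39 ± 0.24 (adjusted p = 0.236), with 906c inside the range of the 12 arrays. Neural ectoderm genes were above in 4 of 8 (50%) and below in 2 (25%), with PAX6, the eye and forebrain regulator, at 7.47 in line 906 and 6.03 ± 0.48 in the 4 lines. PAX6 was present on 1 of 3 arrays of line 906 and on 0 of 12 of the others. SOX3, a factor of neural progenitors, was below, at 9.44 in line 906 and 10.07 ± 0.35 in the 4 lines, and was present on all 15 arrays. TUBB3, the neuronal tubulin, was also below, at 9.12 in line 906 and 9.77 ± 0.36 in the 4 lines. Of 12 endoderm genes, 2 were above (16.7%) and 0 below, and of 7 blood and endothelial genes 1 was above (14.3%) and 2 below (28.6%), TEK among the lower.

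Of 20 imprinted genes tested, 7 were above the 4 lines (35%) and 0 below. DLK1, a paternally expressed Notch ligand relative, read 9.72, 11.23 and 9.59 in line 906 and 8.49 to 9.52 (median 8.99) in the others, without overlap. The DLK1 difference was 1.19 ± 0.29 with an adjusted p of 0.374. DIRAS3, a paternally expressed GTPase, averaged 7.99 in line 906 and 7.12 ± 0.38 in the 4 lines. H19, a maternally expressed RNA, averaged 10.35 in line 906 and 9.76 ± 0.24 in the 4 lines, and its second probe set gave 0.22. Array 906c held much of both: H19 read 9.73, 11.28 and 10.05 on the arrays of line 906, and without 906c its difference was 0.13, within the range of the 4 lines. Without 906c the DLK1 difference was 0.67, still above all 4 lines.

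ATF4 targets were above in 5 of 14 (35.7%) and below in 0, with a median of 0.27, and asparagine synthetase, ASNS, averaged 14.05 in line 906 and 13.52 ± 0.30 in the 4 lines. Of the hypoxia and glycolysis genes, 6 of 16 were above (37.5%), among them hexokinase HK2 at 11.26 in line 906 and 10.71 ± 0.08 in the 4 lines, without overlap on single arrays. Of 20 cell cycle genes, 4 were above (20%) and 1 below (5%), with PCNA at 13.81 in line 906 and 13.18 ± 0.14 in the 4 lines and CCNA2 at 11.82 in line 906 and 12.17 ± 0.06 in the 4 lines. Among p53 targets 3 of 17 were above (17.6%) and 5 below (29.4%), with FAS the largest.

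In the immediate early and heat shock list, EGR4, EGR2 and FOS had the largest differences, of -1.24, -0.95 and -1.07, and all 3 lay within the range of the 4 lines. Of the 14 genes tested, 1 was above (7.14%) and 1 below (7.14%). Line 3106 held the top of that range, with 12.68 for FOS and 13.25 for EGR2. FOS read 7.405, 10.49 and 8.03 on the arrays of line 906, and 10.37 on 106c and 10.065 on 306c. Without 906c the FOS difference was -1.99, below the 4 lines. The glutathione transferase gene GSTT1 averaged 5.22 in line 906 and 6.64 ± 0.16 in the 4 lines and was present on 0 of 3 and 1 of 12 arrays. Of the 24 metallothionein and glutathione genes tested, 8 were above (33.3%) and 2 below (8.33%), GSTT1 among them. Histocompatibility and antigen presentation genes were above in 4 and below in 4 of 21 (19% each), with the peptidase ERAP1 at 9.87 in line 906 and 8.92 ± 0.60 in the 4 lines. Of 17 interferon response genes, 3 were above (17.6%) and 2 below (11.8%), with MX1 at 10.66 in line 906 and 9.94 ± 0.15 in the 4 lines and IFIT3 at 5.48 in line 906 and 6.56 ± 0.30 in the 4 lines. IFIT3 had no present call on the 15 arrays.

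**Figure D5:**
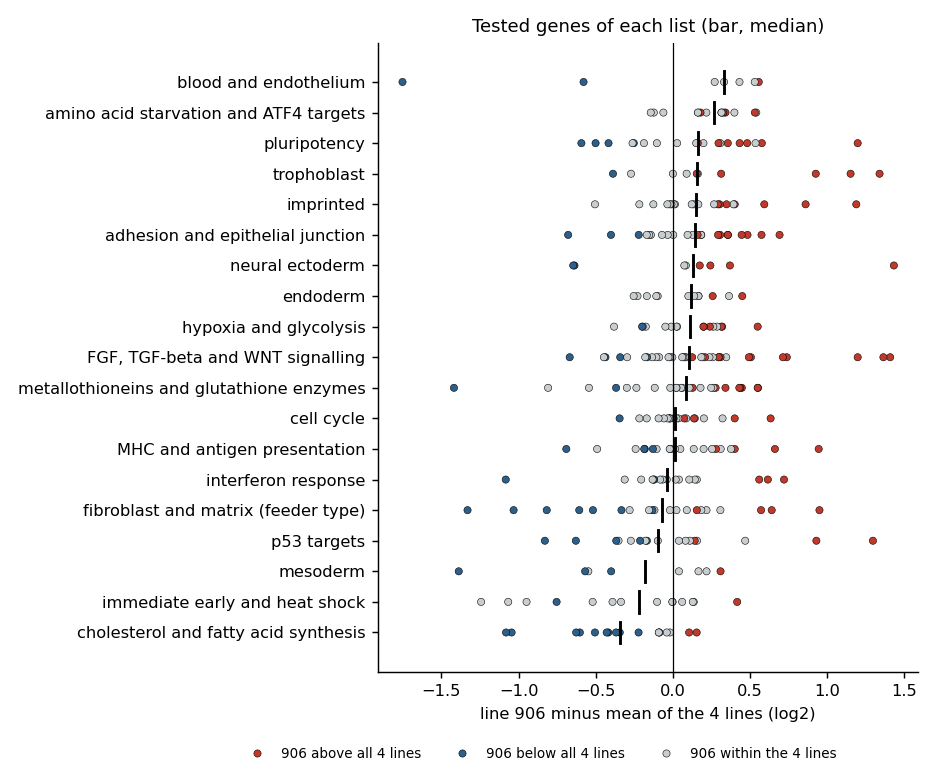
Difference of line 906 from the mean of the 4 lines (log2, horizontal axis) for the tested genes of each list with 5 or more, red where line 906 was above all 4 lines, blue where it was below all 4 and grey where it was within, with a black bar at the list's median. The median is lowest for cholesterol and fatty acid synthesis (-0.34), where 10 of 17 points are blue.

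Over all probe sets tested, the distance between lines (1 minus Pearson r of line means) was 0.0247 from line 906 to line 306, 0.0285 to 106, 0.0299 to 2706 and 0.0337 to 3106. These averaged 0.0292 ± 0.0037 (SD over 4 pairs that share line 906). Pairs of the 4 lines with the same sire and different dams averaged 0.0274 ± 0.0016 (4 pairs), and both pairs of full siblings were at 0.0203. The pairs with different dams ran from 0.0255 to 0.0292. Lines 306 and 106 were thus as near to line 906 as half-sibling lines were to each other, while lines 2706 and 3106 were farther from it than any such pair. Pairs share lines, so no test was made.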

How the data were processed

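The deposited intensity values, 1 per probe set and array, were made by the authors with GCOS per the submitters' processing notes, with no version or settings recorded in the labels. Every array had a mean intensity of 500.03 to 500.04 once 2% was trimmed from each end, so the deposited values were already scaled. Present, marginal and absent calls came from a second deposited table, which also filled 1 blank cell; 0 other cells differed. The deposited attributes gave the sex and parents.

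Of 52865 probe sets, 158 controls were left out. Of the others, 24956 have 1 gene symbol in the platform annotation, updated through gene identifiers to RefSeq (24616 matched), 361 have several and 27390 none. Tests covered probe sets whose signal passed the median of the array on 3 or more of the 15 arrays. The main test, on line means of log2(signal + 16), was limma 3.58.1 under R 4.3.3 (lmFit and eBayes, residual df 3, prior df 3.99), with line 906 assumed to vary like the 4 lines, and p-values were adjusted by Benjamini-Hochberg over 30842 probe sets with a threshold of 0.05. The fit was first run on simulated independent lines with planted differences. That checked only that it returned their mean size and sign, and it bears on no result given here. The brightest probe set stood for a gene.

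Where the 4 lines had no present call, a fold is a bound, set per array against the higher of the probe set's own signal and the lowest signal with a present call. Named genes are the 12 largest differences per direction, called first and then those with all 3 arrays of line 906 beyond all 12 others, up to 3 genes per list, and POU5F1, NANOG, SOX2, DNMT3B and DPPA4. LOC704450 is named for its called probe set, which is not its brightest. The comparison, the members and the 21 lists were chosen with earlier results of these data known. Figures were drawn with matplotlib 3.10.9. Alternatives are given in the closing section. No coordinates or sequences are given, since the array's own build was not used here.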

Additional observations from a re-analysis of the deposited data

Results flagged for a closer look

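Among the 4 comparison lines, 1 line stood far from the other 3 for 3 of the 87 named probe sets, by Dixon's criterion for 4 values, which chance meets in about 1 in 20 groups. FOS was at 12.68 in line 3106, against 8.86 in the next line. SOX2 was at 13.46 in line 106, against 13.91 in the next. PLA2G2E was at 5.10 in line 3106, against 5.74 in the next. Line 906 was at 8.64 for FOS, 14.12 for SOX2 and 8.63 for PLA2G2E. The cause was not tested.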

How the results depend on the processing

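Over 25 alternative settings (24 for LOC704450, which the 75th percentile filter left out) the 4 called probe sets kept their signs; the count of calls did not stay at 4. With limma it was 0 with a pseudocount of 1, without the filter, without line 106, 306 or 3106, against lines 2706 and 3106 alone and without variance moderation (2058 to 3804 at an unadjusted p under 0.05), 1 without line 2706, 2 without arrays 906c, 106c and 306c, 7 with a pseudocount of 64, 8 with trend and robust moderation, 8 against all 9 lines with sex as a covariate, and 47 against lines 106 and 306 alone. With arrays in place of lines it was 210 with the line as a random block, 511 with arrays as replicates, which counts arrays of a line as independent, and 356 with the array letter as a replicate block. The letters are not stated to mark a shared batch: deviations of same-letter arrays correlated from -0.239 to 0.433 (24 pairs, median 0.181) and those of other pairs from -0.399 to 0.322 (66 pairs, median -0.060), so same-letter arrays were somewhat more alike, not in every pair. The 1 call without line 2706 was LOC704450, which passed the filter only through line 906. Leaving out each array of line 906 gave 4 to 5 calls. Probe sets outside the range numbered 23123 without the filter, 6484 with the 75th percentile filter, 21170 against 106 and 306 alone, 22731 against 2706 and 3106 alone, and 14500 to 15255 without each array of line 906. Those outside by over 1 numbered 286 and 73 with pseudocounts of 1 and 64, 250 without the filter, 65 with the 75th percentile filter, 261 with line medians, 255 without the 3 high-median arrays, 254 without line 306, 440 and 578 against each sibling pair alone, and 225 to 286 without each array of line 906. Those apart on every array numbered 509 with the 75th percentile filter, 2777 without the 3 high-median arrays, 1539 and 1314 without lines 106 and 306, 2114 and 3335 against each sibling pair, and 1280 to 1844 without each array of line 906; fewer arrays make it easier to lie apart. The mean distance of line 906 was 0.0342 and 0.0233 with pseudocounts of 1 and 64, 0.0224 without the filter, 0.0370 with the 75th percentile filter, 0.0222 with the present call filter, 0.0342 with line medians, and 0.0318 to 0.0328 without each array of line 906. Of 87 named probe sets, 12 values changed sign, none of them called. These were POU5F1 (-0.065 after quantile normalization), DPPA4 (0.016 with line medians, 0.044 without line 106, and -0.204 to 0.042 without each array of line 906), EGR2 (0.16 without line 3106 and 0.53 against 106 and 306 alone), S100A6 (-0.502 to 1.753 without each array of line 906, lowest without 906c), APOA1 (-0.210 to 1.075, lowest without 906d) and, against 106 and 306 alone, GSC (0.26), TRIB3 (-0.08), ADM (0.15) and EGR4 (0.26). Trophoblast genes above the 4 lines were 2 of 4 with the 75th percentile filter. Of 317 listed genes, 10 were called with arrays as replicates and 6 with the replicate block, beside 511 and 356 of all 30842 probe sets. The counts outside by over 1 and apart, the distance and the lists under these settings were added after seeing the data. The number of arrays limits the precision, and 52 of the 166 probe sets outside by over 1 were never called present.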

Other observations

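Mitochondrial DNA passes through the dam, and the 6 tested probe sets that the array design names for the mitochondrial genome carry no gene symbol, so that 0 of the 24 listed mitochondrial genes were tested by symbol. MmuMitochon.6.1.S1_s_at was at 13.21 in line 906, against 15.29 and 15.18 in lines 106 and 306 (dam F244) and 11.13 and 10.86 in lines 2706 and 3106 (dam F88). MmuMitochon.10.1.S1_s_at was at 12.81 in line 906, against 14.56 and 14.44 in lines 106 and 306 and 12.02 and 11.96 in lines 2706 and 3106. MmuMitochon.12.1.S1_s_at was above all 4 lines, at 15.22 in line 906 and 14.72 ± 0.08 in the 4 lines (adjusted p = 0.635 by limma), but below the highest female line. MmuMitochon.4.1.S1_at was above all 9 other lines, at 15.55 in line 906 and 14.44 ± 0.79 in the 4 lines (adjusted p = 0.761). MmuMitochon.13.1.S1_at was below all 9, at 9.15 in line 906 and 9.79 ± 0.51 in the 4 lines (adjusted p = 0.788). MmuMitochon.3.1.S1_s_at was within the range of the 4 lines. Whether probe sequence or transcript level differs was not tested.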
